A study of Mus musculus with 2 samples.

Results

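The 10 genes described here carry out and regulate mitosis. They are the kinase genes *Plk1*, *Aurka* and *Aurkb*, the genes *Cdc20* and *Ube2c* of the anaphase-promoting complex (APC/C) pathway, the chromosome-bound factors *Birc5*, *Cdca8*, *Cdca2* and *Top2a*, and the proliferation marker *Mki67*. They were chosen by name, and all 23 probes carrying these names on a mouse expression microarray were read, out of 37074 gene names and 56605 probes on the array. Each genotype was measured on 1 array, so the differences below have no replicate check and no test, and genotype cannot be told apart from the culture or the mice that each RNA came from.

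Both RNA samples came from primary hepatocytes of mice on a C57BL/6 background. The Drp1LiKO mice lacked *Drp1*, the gene of the GTPase that divides mitochondria, in cells where an albumin-promoter Cre removed the floxed alleles (Alb-Cre Tg/+, *Drp1* flox/flox). The control, labelled wild type, was described in the methods as a *Drp1* flox/flox littermate without Cre, so floxed alleles were shared by both groups. Neither culture received a treatment: cells were seeded at 300000 per well, the medium was changed at 4 h, and RNA was taken at 24 h. The methods give an age and sex for purchased C57BL/6J males, without saying whether these apply to the mice of the 2 cultures, and the number of mice per RNA sample was not given in the sources used here.

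A dividing cell makes mitotic proteins late in its cycle and destroys many of them as it leaves mitosis. PLK1 and Aurora A drive entry into mitosis and build the spindle, while Aurora B acts on chromosomes as the enzyme of the chromosomal passenger complex. CDC20 then activates the APC/C, a ubiquitin ligase that marks cyclin B and securin for destruction, and chromosomes separate. Hepatocytes of the adult liver rarely divide, and isolation and plating are known to prime them to leave quiescence. The transcripts of mitotic genes peak together in G2 and M phase, and the promoters of many such genes hold CCAAT boxes, which NF-Y binds, and a cell cycle genes homology region (CHR), which the DREAM and MYBL2-containing complexes bind.

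The promoters are shown first because most of those read here hold these elements. RefSeq promoter sequences, from 250 bases before to 50 bases after the transcript start on GRCm38.p6, are described for 7 of the 10 genes (not for *Aurkb*, *Cdca2* and *Cdca8*). The CHR letters TTTGAA were searched on both strands and stood in 6 of the 7 promoters, against 17.9% of 32851 mouse promoters of the same length. For each of these genes the match nearest to the start is printed with the bases around it, 5′ to 3′ along the gene, with TTTGAA, or TTCAAA where it lies on the opposite strand, in capitals.
Plk1, chr7:122159453-122159482, plus strand: cccagcgccgcgTTTGAAttcggggaggag
Aurka, chr2:172370521-172370550, minus strand: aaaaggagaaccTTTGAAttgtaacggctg
Cdc20, chr4:118437344-118437373, minus strand: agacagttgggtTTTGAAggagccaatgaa
Ube2c, chr2:164769888-164769917, plus strand: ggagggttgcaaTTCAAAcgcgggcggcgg
Top2a, chr11:99024195-99024224, minus strand: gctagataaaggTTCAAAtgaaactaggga
Mki67, chr7:135716460-135716489, minus strand: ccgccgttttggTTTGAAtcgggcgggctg

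In 5 of these windows (all but that of *Cdc20*) no CCAAT box falls inside the printed bases, but each of the 6 promoters held at least 1 elsewhere. CCAAT, searched on both strands, was present in 6 of 7 promoters, against 37.4% of all promoters, and 5 of 7 held at least 2, against 11.7%. *Ube2c* and *Top2a* held 6 CCAAT boxes each, although 2 matches in *Ube2c* overlap on opposite strands. CCAAT and TTTGAA stood together in 6 of 7 promoters, against 6.95% of all promoters. A second form of the CHR, TTCGAA, which reads the same on both strands and was counted once, was found in *Top2a* alone (1.56% of all promoters). TTTCGCGC, an E2F site, was in none of the 7 (0.323% of all promoters). The *Birc5* window held none of these letters. A match is a description of the letters in the window and not evidence that a factor binds there. A missing match does not show that an element is absent, because only exact letters in a short window were searched.

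**Figure D1:**
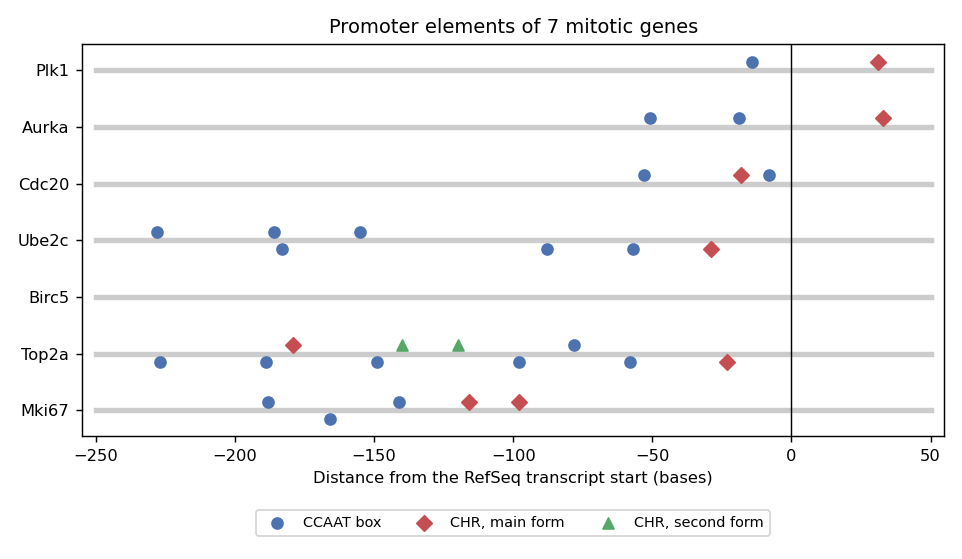
Positions of CCAAT boxes and of 2 forms of the CHR in the promoters of 7 mitotic genes, in bases from the RefSeq transcript start (vertical line); each grey bar is 1 promoter window, and symbols above or below it lie on the gene's own or the opposite strand. A main-form CHR match lies within 50 bases of the start in *Plk1*, *Aurka*, *Cdc20*, *Ube2c* and *Top2a*. *Top2a* and *Mki67* hold 2 such matches each, and no match to any of the elements was found in *Birc5*.

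All 10 genes gave a lower signal in the Drp1LiKO culture than in the control culture. A gene was read by its brightest probe, and its log2 ratio is the Drp1LiKO signal minus the control signal after each array was scaled to its 75th percentile (313.4 in control, 355.6 in Drp1LiKO). The ratios ran from -2.34 to -1.15, or 5.06-fold to 2.22-fold lower, with a median of -2.15 (4.45-fold lower), whereas the median over all 20165 genes compared was -0.05. Of all genes, 55.5% had a ratio below 0. A Z score of -2 corresponds here to 2.48-fold lower, and 8 of the 10 genes passed it, against 2.81% of all genes (566 of 20165). The study also used a Z score of 2, but the scores here were computed anew, so both cutoffs need not call the same genes. The 2 genes short of the cutoff here were *Aurkb* and *Cdca8*, of which the study listed *Cdca8* among its lower mitotic genes. Since 7 of the 10 genes belong to a mitotic group that the study picked from these same arrays, their shared direction is not independent evidence. The 3 genes outside that group, *Aurkb*, *Top2a* and *Mki67*, had a median of -1.91, and 2 of them passed the cutoff. These 3 were read from the same arrays and chosen with earlier results known, so they are not independent evidence either.

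**Figure D2:**
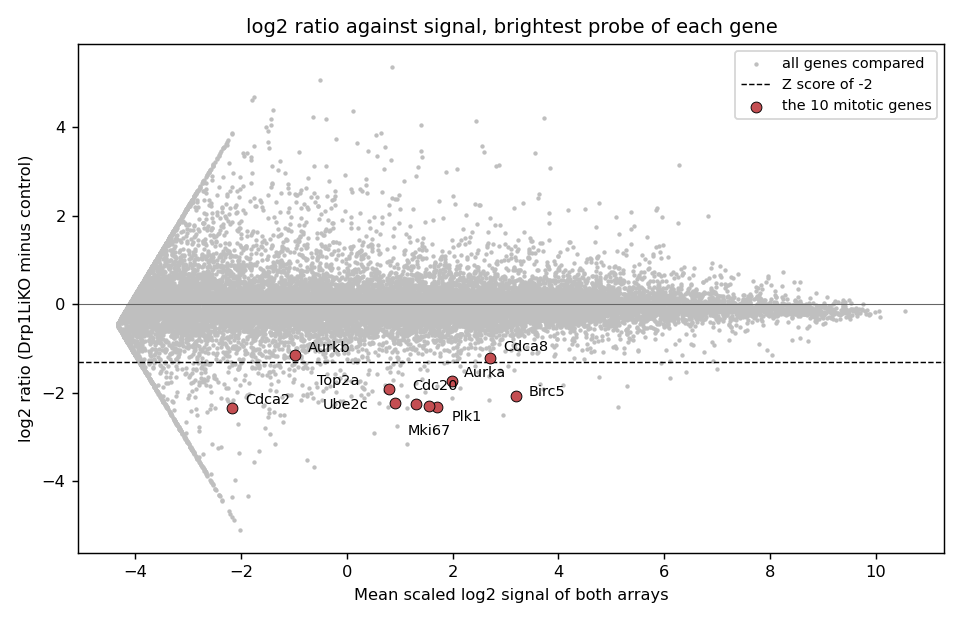
log2 ratio (Drp1LiKO minus control) against the mean scaled log2 signal of both arrays, for the brightest probe of 20165 genes (grey) and of the 10 mitotic genes (red); the dashed line marks the Z score of -2. The 10 genes lie in the dim to middle part of the signal range, all below 0, with *Aurkb* and *Cdca8* above the dashed line; the slanted grey edges are genes held at the lowest measurable signal on 1 array.

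The arrays give spot noise but no biological spread. Probes printed 10 times varied by 0.036 to 0.234 (SD, log2) within an array, depending on brightness, and from these values the noise of a log2 ratio was 0.05 to 0.26 for the 10 genes. Every ratio of the 10 genes exceeded this noise several-fold, but the noise covers the array alone and not mice, cultures or labelling. Signals are printed below in the array's linear intensity units with the error that Feature Extraction assigns to each signal.

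*Plk1* encodes the kinase that activates CDK1 at mitotic entry and matures the spindle poles. Its single probe (chr7:129313220-129313279, mm9) read 2273 ± 227 in control and 519.4 ± 52.0 in Drp1LiKO, which after scaling was 20.1% of the control level (log2 ratio -2.31, Z -3.53). *Aurka* encodes Aurora A, which assembles the spindle at centrosomes. Its single probe (chr2:172181734-172181793, mm9) read 2252 ± 225 in control and 773.8 ± 77.4 in Drp1LiKO, or 30.3% of control (log2 ratio -1.72, Z -2.63). The ratio of *Aurka* was nearer to 0 than that of *Plk1* by more than spot noise. In the deposited normalized values the gap was smaller, with -1.72 for *Aurka* and -2.13 for *Plk1*.

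*Aurkb*, *Birc5* and *Cdca8* encode 3 subunits of the chromosomal passenger complex, which corrects faulty attachments of chromosomes to the spindle. *Aurkb*, the Aurora B kinase, read 237.1 ± 24.1 in control and 121.2 ± 12.6 in Drp1LiKO on its brightest probe (chr11:68864596-68864655, mm9; log2 ratio -1.15, Z -1.75). Its second probe went from 84.99 to 40.85 with a log2 ratio of -1.24, and the ratios of both probes differed by less than spot noise. *Cdca8*, or borealin, which ties the complex to the centromere, read 3137 ± 314 in control and 1533 ± 153 in Drp1LiKO (chr4:124595809-124595868, mm9; log2 ratio -1.22, Z -1.85). Another *Cdca8* probe gave -1.14, and the remaining one was not well above background on either array. These 2 genes had the ratios nearest to 0 of the 10.

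*Birc5*, or survivin, the subunit that docks the complex on chromatin, moved further than both of its partners. It was read by a probe for each of 2 transcript records. The brightest (chr11:117716959-117717018, mm9) read 5908 ± 591 in control and 1605 ± 160 in Drp1LiKO (log2 ratio -2.06, Z -3.15). The other probe went from 684.6 to 163.8 (log2 ratio -2.25). The complex's scaffold gene, *Incenp*, had a log2 ratio of -0.56, from 5036 to 3888, so the 4 subunit genes of the passenger complex spanned -2.06 to -0.56.

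*Cdc20* encodes the activator that brings the APC/C to its first targets in mitosis. Its brightest probe (chr4:118105534-118105593, mm9) read 1693 ± 169 in control and 402.0 ± 40.3 in Drp1LiKO, or 20.9% of control (log2 ratio -2.26, Z -3.45). A second probe went from 872.3 to 242.1 (log2 ratio -2.03), a difference between the probes of 0.23 against a spot noise of 0.21. *Ube2c* encodes the E2 enzyme that places the first ubiquitin on APC/C targets. Its single probe (chr2:164598016-164598075, mm9) read 1287 ± 129 in control and 308.7 ± 31.0 in Drp1LiKO, or 21.1% of control (log2 ratio -2.24, Z -3.43). The ratios of this activator and E2 gene differed by 0.02, less than spot noise.

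*Cdca2* encodes Repo-Man, which brings protein phosphatase 1 to chromosomes as they leave mitosis. It had the lowest ratio and the dimmest brightest probe of the 10 genes. That probe (chr14:68295097-68295156, mm9) read 157.2 ± 16.1 in control and 35.23 ± 4.62 in Drp1LiKO, or 19.7% of control (log2 ratio -2.34, Z -3.58). When the background was removed with normexp instead of by Feature Extraction, the log2 ratio was -1.39. Of its 5 other probes, 3 were well above background in control only and were at least 1.80-fold, 3.65-fold and 3.71-fold lower in Drp1LiKO, with the lowest measurable signal standing in for the dim side or the probe's own signal where that was higher. The last 2 probes were not well above background on either array.

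*Top2a* encodes the topoisomerase that untangles sister chromosomes. Its brightest probe (chr11:98854651-98854710, mm9) read 1062 ± 106 in control and 319.7 ± 32.1 in Drp1LiKO, or 26.5% of control (log2 ratio -1.91, Z -2.92). A second probe went from 384.7 to 125.9 (log2 ratio -1.79). A probe for another transcript record was well above background in control only and at least 2.66-fold lower in Drp1LiKO, and 1 probe was dim on both arrays. *Mki67* encodes Ki-67, which coats mitotic chromosomes and is used by pathologists to count cycling cells. Its single probe (chr7:142881591-142881650, mm9) read 2048 ± 205 in control and 471.8 ± 47.3 in Drp1LiKO, or 20.3% of control (log2 ratio -2.30, Z -3.51).

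Counted over all 23 probes, 15 were well above background on both arrays, 4 in control only, none in Drp1LiKO only and 4 on neither. All 15 probes measured on both arrays had ratios below 0, and 11 passed the cutoff, against 1.43% of 26443 probes measured on both. The 4 probes measured in control only entered through the group where they were high and are left out of this count. In the 5 genes with more than 1 probe measured on both arrays, the ratios of the probes differed by 0.07 to 0.23 (log2), with only *Cdc20* past spot noise. The order of the 10 ratios, lowest first, was *Cdca2*, *Plk1*, *Mki67*, *Cdc20*, *Ube2c*, *Birc5*, *Top2a*, *Aurka*, *Cdca8* and *Aurkb*. Neighbours in this order differed by no more than 2 times the spot noise of their difference, except *Aurka* and *Cdca8*, which were 0.51 apart.

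**Figure D3:**
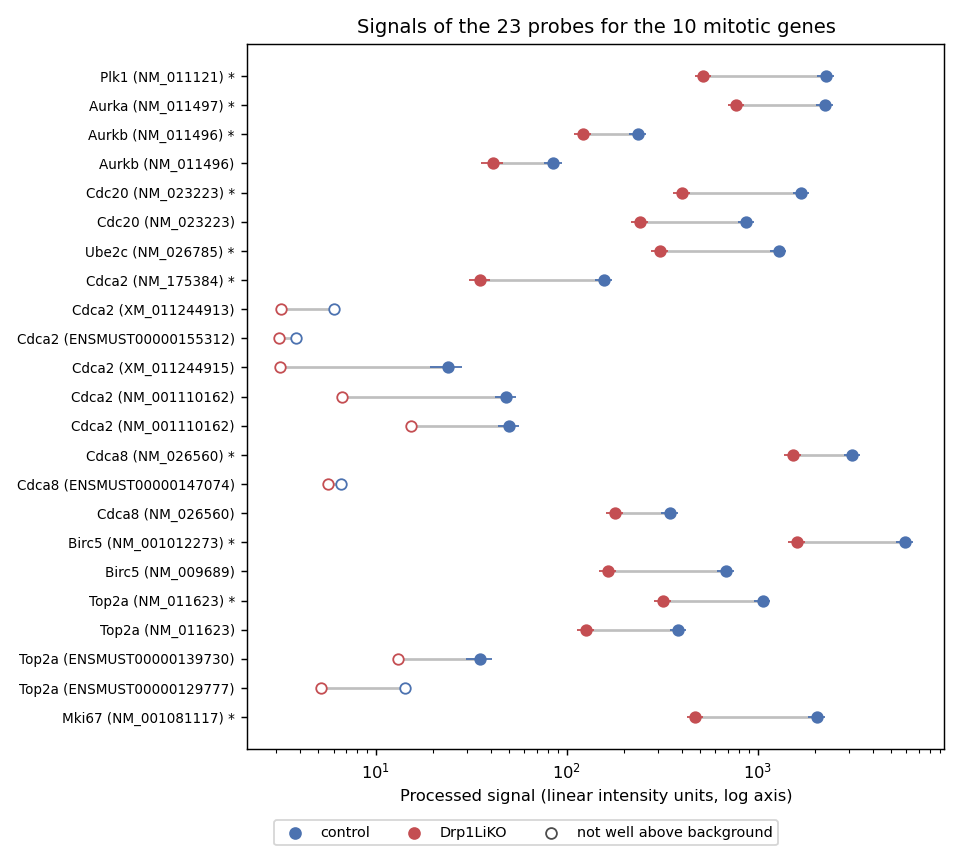
Processed signal of each of the 23 probes on the control (blue) and Drp1LiKO (red) arrays, on a log axis in linear intensity units before scaling between arrays, with bars for Feature Extraction's error of the signal; an asterisk marks each gene's brightest probe and open circles are signals not well above background. The Drp1LiKO point lies left of the control point for all 23 probes, those not well above background included.

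The genes around these 10 were read from 11 lists of partners, paralogs and regulators. Of their 114 genes, 109 were measured on both arrays. Of these 97 had ratios below 0 (55.5% of all genes did). The cutoff was passed downward by 20 (2.81% of all genes) and upward by 0 (3.5% of all genes), with 1 array per genotype and no test. The shares of all genes are over genes measured on either array. Of probes measured on both, 1.43% passed the cutoff downward. 6 of the 109 had a ratio below the median of the 10 mitotic genes.

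The subunit genes of the ligase that CDC20 and UBE2C serve had ratios near 0. All 14 APC/C subunit genes were measured, their ratios ran from -0.33 (*Anapc5*, from 31860 to 28710) to 0.08 (*Cdc16*, from 3427 to 4106) by the brightest probe, and none passed the cutoff (median -0.06, near that of all genes). *Anapc5*, which the study counted in its mitotic group, had 2 dimmer probes, with a log2 ratio of -0.74 on one (from 91.82 to 62.21), while the other was well above background in control only and at least 3.08-fold lower. Among 6 further genes for APC/C activators, ubiquitin-conjugating enzymes and inhibitors, 1 passed the cutoff (median -0.26). It was *Fbxo5*, or EMI1, the inhibitor that holds the APC/C off until mitosis, which went from 759.7 to 228.8 (log2 ratio -1.91). *Fzr1*, or CDH1, the activator that takes over from CDC20 at the end of mitosis, went from 2546 to 2332 (log2 ratio -0.31). *Ube2s*, the enzyme that extends the ubiquitin chains begun by UBE2C, went from 4810 to 4320 (log2 ratio -0.34), and *Ube2d1* had a ratio of -0.01. Of *Cdc20*, *Ube2c* and the genes of both lists in this paragraph, those past the cutoff by the brightest probe were *Cdc20*, *Ube2c* and *Fbxo5*.

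Of 6 kinase partners and activators measured on both arrays, 3 passed the cutoff (median -1.22). *Hmmr*, a spindle protein, was the lowest at -1.89 (from 461.0 to 141.7), and *Tpx2*, which activates Aurora A on the spindle, stood at -1.73 (from 601.6 to 205.5). *Bora*, which helps Aurora A to activate PLK1, was well above background in control only and was at least 2.57-fold lower. *Cep192*, the centrosome scaffold for both kinases, had the highest ratio, -0.25. With *Bora* counted, the median of this list was -1.36, and it was -0.67 with normexp and -0.71 in the deposited normalized values.

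None of the 4 measured paralogs of the kinases passed the cutoff. *Plk2* and *Plk3*, which respond to stress, had ratios of 0.51 (from 1818 to 2942) and 0.70 (from 1416 to 2611). *Plk4*, which starts centriole duplication, had a ratio of -0.96 (from 290.7 to 169.9), and *Aurkc* was not well above background. A further list held paralogs of *Top2a* and *Birc5*, other genes named *Cdca* and the catalytic subunits of protein phosphatase 1; its 12 genes measured on both arrays had a median of -0.28, and 1 passed the cutoff. *Top2b*, which non-dividing cells also make, was at -0.15 (from 3567 to 3638), while its paralog *Top2a* was at -1.91. The lowest of these genes was *Cdca3*, a trigger of mitotic entry, at -2.18 (from 631.8 to 158.6), and the highest was *Ppp1cc*, a catalytic subunit of the phosphatase that Repo-Man carries, at -0.12.

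The spindle checkpoint holds CDC20 back until chromosomes are attached. Of its 7 genes 3 passed the cutoff (median -0.90). They ranged from *Ttk*, the kinase that starts the signal, at -2.22 (from 150.5 to 36.65), to *Bub3* at -0.23 (from 13470 to 13030). Of 12 measured genes of CDK1 and mitotic entry 6 passed (median -1.35). *Ccna2*, for cyclin A, was the lowest at -2.32 (from 1203 to 273.5), and *Ccnb1*, for cyclin B, stood at -2.17 (from 477.6 to 120.4). *Cdk1* itself, at -1.25 (from 642.1 to 306.2), was short of the cutoff used here, although the study counted it in its mitotic group. *Mastl*, the Greatwall kinase, had the highest ratio, -0.04.

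Of 8 genes for activating factors of late-cycle genes (B-MYB, FOXM1, NF-Y and E2F), 2 passed the cutoff (median -0.35). *Mybl2*, or B-MYB, went from 1411 to 378.0 (log2 ratio -2.08) and *Foxm1* from 837.3 to 233.0 (log2 ratio -2.03), ratios within the range of the 10 mitotic genes. The NF-Y subunit genes *Nfya*, *Nfyb* and *Nfyc*, named here after their values were seen, had ratios of -0.20, -0.22 and -0.20, and the highest of the list was *E2f3* at -0.11. Among 13 DREAM and repressor subunit genes 2 passed (median -0.62), with ratios from -2.66 for *E2f7*, a late-cycle repressor (from 343.2 to 61.45), to 0.01 for *E2f5*. *Birc5*, whose promoter window held none of the searched letters, had a ratio of -2.06. The 6 genes whose windows held both CCAAT and TTTGAA had ratios from -2.31 (*Plk1*) to -1.72 (*Aurka*). A link between these elements and the ratios was not tested.

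All 11 companion lists had medians nearer to 0 than that of the 10 mitotic genes, those for earlier phases of the cycle included. The S phase median was close to that of the spindle checkpoint genes (-0.90). Of 15 measured S phase genes 2 passed the cutoff (median -0.83), with ratios from -1.87 for *Cdc6*, which loads the replicative helicase (from 730.9 to 226.7), to -0.14 for its partner *Cdt1* (from 6341 to 6532). None of 12 quiescence and G1 genes passed it in either direction (median -0.19). They ran from -0.94 for *Cdk2* (from 238.8 to 141.8) to 0.70 for *Cdkn1c*, the CDK inhibitor p57 (from 40.49 to 74.61).

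**Figure D4:**
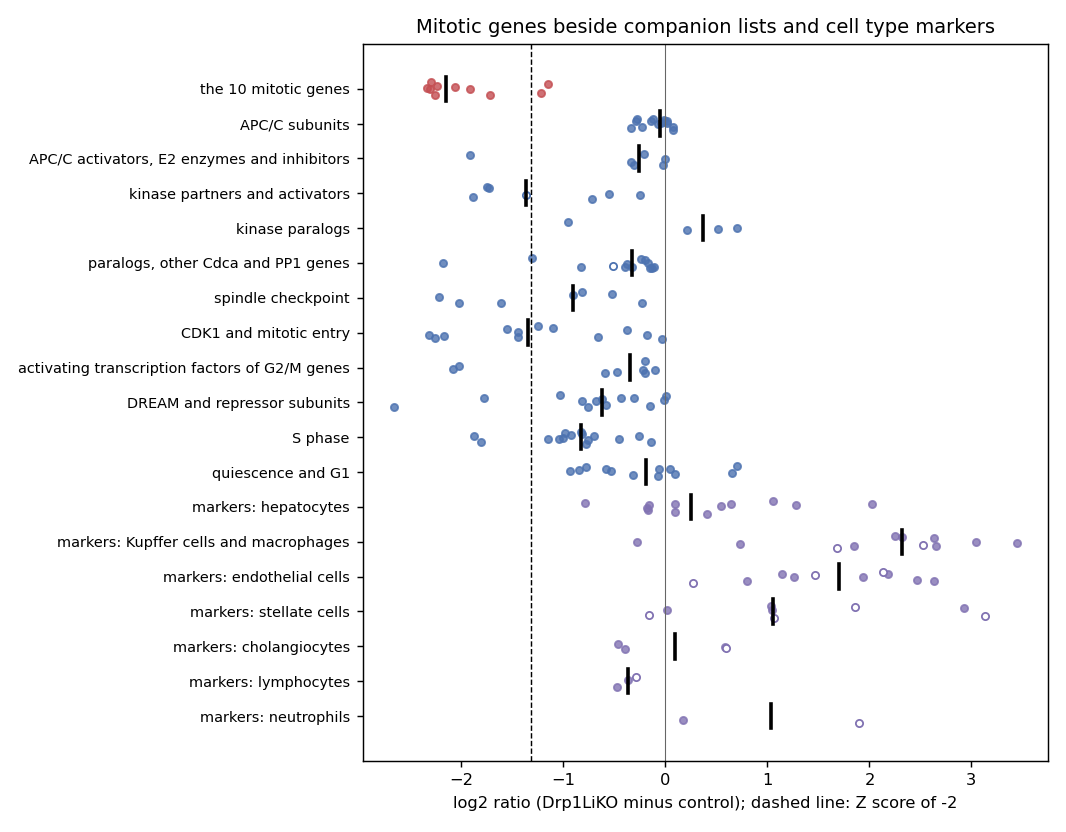
log2 ratio (Drp1LiKO minus control) of each measured gene in the 10 mitotic genes (red), 11 companion lists (blue) and 7 cell type marker lists (purple); black bars are list medians with bounds included, open circles are bounds where 1 array was not well above background, and the dashed line is the Z score of -2. The 10 mitotic genes have the lowest median, -2.15, the APC/C subunits lie near 0, and the markers of Kupffer cells and macrophages have the highest median, 2.32.

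The cultures were whole, so fewer cells of a type and less RNA per cell cannot be told apart. All 12 hepatocyte markers were measured on both arrays, with a summed signal of 631782 in control and 699668 in Drp1LiKO. Summed signals in this paragraph are before scaling between the arrays. After scaling, 4 of the 12 markers had ratios below 0 and 8 above, 1 passed the cutoff upward, and the median log2 ratio was 0.25. The brightest, *Serpina1a*, had a ratio of -0.18. Most measured markers of Kupffer cells and macrophages, endothelial cells and stellate cells were higher in Drp1LiKO, opposite in direction to the mitotic genes. Those of cholangiocytes and lymphocytes were not. Of 12 Kupffer cell and macrophage markers 9 were measured on both arrays, 8 of them had ratios above 0 and 7 passed the cutoff upward (median 2.32). The upward share of all genes, measured on either array, was 3.5%. The summed signal over the 11 markers measured on either array was 8698 in control and 23434 in Drp1LiKO. The brightest, *Cd68*, went from 2346 to 9593. The defining markers *Clec4f* and *Vsig4* were well above background in Drp1LiKO only, where they were at least 5.75-fold and 3.21-fold higher. *Timd4* was well above background on neither array. Of 10 endothelial markers 7 were measured on both arrays and 3 in Drp1LiKO only. The 7 had ratios above 0 and 4 passed the cutoff (median 1.93), the summed signal of the 10 was 758 and 2648, and the brightest was *Stab1*. Of 10 stellate cell markers 4 were measured on both arrays and 4 in Drp1LiKO only, and 1 of the former passed (median 1.04), while the brightest, *Acta2*, had a ratio of 0.02. Of 6 cholangiocyte, 8 lymphocyte and 6 neutrophil markers, 3, 2 and 1 were measured on both arrays, with medians of -0.40, -0.42 and 0.17, and *Spp1*, *Cd4* and *Csf3r* were the brightest. The part of these cells in the lower signal of the mitotic genes was not tested. *Dnm1l*, the gene of DRP1, read 2602 ± 260 in control and 1217 ± 122 in Drp1LiKO on its brightest probe (log2 ratio -1.28, Z -1.95), and -0.31 on a dim probe; whether either lies in the deleted exons was not given in the sources used here, so neither checks the genotype label.

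Other processing left all 10 genes lower in Drp1LiKO. Each gene was recomputed under 9 alternatives, and 90 of 90 values were below 0. Many of these are repeats: changing the filter, the floor or the outlier spots left each ratio as it was, though not its Z score. Every brightest probe was well above background on both arrays, so filter and floor could not move its ratio. *Aurka* was short of the cutoff where dim signals were left without a floor, and *Aurkb* and *Cdca8* passed it with normexp, with probes measured on both arrays only, and with a Z score from the median.

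**Figure D5:**
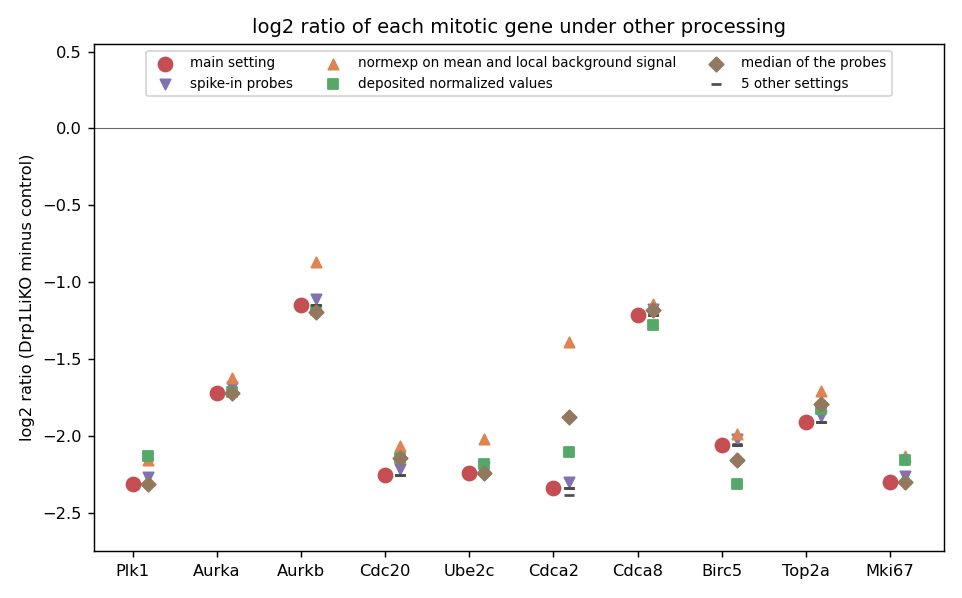
log2 ratio (Drp1LiKO minus control) of each of the 10 mitotic genes in the setting used here (red circles) and under 9 alternatives (other symbols, drawn to the right). Every value lies below 0, and the widest spread is that of *Cdca2*, from -2.39 with quantile normalization to -1.39 with normexp.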

How the data were processed

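RNA of 1 control and 1 Drp1LiKO hepatocyte culture was hybridised to an Agilent mouse oligonucleotide array read in 1 color, both on 1 slide and in 1 scan. The authors deposited, for each array, the intensity of every spot from Agilent Feature Extraction (9.5.1.1 per the submitters' notes), background-subtracted within the array and with probe positions on mm9, and a table of normalized values whose scaling is not given in the sources used here. The deposited control values rank as the control array does (rank correlation 1), and the Drp1LiKO values do not rank exactly as their array (0.9585), so that table served as an alternative only.

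Control spots and outlier spots were left out and spots of a probe averaged. The intensity was taken to log2 and each array's 75th percentile was subtracted. Of 56600 probes, 27256 on the control array and 29462 on the Drp1LiKO array cleared the background, and the 30275 that did so on at least 1 array were kept. Dimmer signals were raised to the lowest signal well above background (18.2 and 15.0). A Z score is the distance of a log2 ratio from the mean over kept probes in SDs (0.65), with a cutoff of 2, and a gene is its brightest probe. No p-value was computed, with 1 array per genotype, and that number limits the precision. The members and lists were chosen with earlier results of these data known. Named were all 10 genes with all probes, *Dnm1l*, the lowest and highest gene of each companion list with 15 fixed partners, the brightest marker of each cell type and the 5 genes nearest in signal. Alternatives were other scalings, background corrections (normexp with 50 added to every signal), filters and Z scores. Scripts were tested on simulated data. Python 3.11.15, pandas 2.3.3, R 4.3.3 and limma 3.58.1 were used. Protein sequences were not analysed here, and the promoter of 1 gene is not reported here.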

Additional observations from a re-analysis of the deposited data

How the results depend on the processing

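The median log2 ratio of the 10 mitotic genes, -2.15, was -1.85 with normexp background correction and -2.01 when a gene was read by the median of its probes, and under 7 other alternatives it moved by less than spot noise. Of those 7, the ones that changed the filter, the floor or the outlier spots left it unchanged. The number of the 10 past the Z score cutoff, 8, was 7 without a floor for dim signals, 9 with Z scores taken within bins of similar brightness, and 10 with normexp, with probes well above background on both arrays, or with a Z score from the median and its absolute deviation. That last score passed 1443 genes downward in all (7.16% of genes), against 566. Without a filter on dim probes the median of all genes was -0.47. Ratios were not centred on that value, and the median of the 10 mitotic genes stayed at -2.15. The median of the APC/C activator list was -0.02 in the deposited values. No value changed sign among 189 values for single genes and lists, which include the 90 already given for the 10 mitotic genes. No paired analysis was possible because each genotype has 1 array. *Cdca2* was limited most by its low signal, and its ratio moved to -1.39 with normexp. That setting added 50 to every signal, more than the 35.23 that *Cdca2* read in Drp1LiKO.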

Other observations

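The 5 genes whose pair of scaled log2 signals lay nearest to the median pair of the 10 mitotic genes were *Timp2* (distance 0.21, log2 ratio -1.99), *Mcc* (0.40, -1.77), *Mboat1* (0.42, -2.34), *Bicc1* (0.42, -1.69) and *Mybl2* (0.45, -2.08). The distance rests on 2 arrays and on probe brightness, which depends on each probe's sequence. Of the 5, *Mybl2* alone is in the companion lists, and *Timp2*, an inhibitor of matrix metalloproteinases, went from 1739 to 496.3.

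The scaling of the arrays was set beside the spike-in probes, which are added in equal amounts. The shift between the arrays was 0.14 (log2) over 7 spike-in probes and 0.18 at the 75th percentile, so scaling on the spike-ins instead moved every ratio by the difference between both, and the median of the 10 mitotic genes was -2.11.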
